A study of Rattus norvegicus with 3 samples.

Results

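Seh1 ChIP-seq peaks of rat oligodendrocyte progenitor cells (OPC) that lie in simple or low-complexity repeats are described here. A peak belongs to the set when the authors' deposited annotation places it in a repeat of class Simple_repeat or Low_complexity. There are 364 such peaks, 345 in simple and 19 in low-complexity repeats. They make up 4.01% (exact binomial 95% interval 3.61 to 4.43%) of the 9084 OPC peaks with an annotation. Of the OPC peaks called in introns or between genes, where alone this label was given, they are 4.65%.

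The study profiled Seh1 by chromatin immunoprecipitation in forebrain cells of Sprague Dawley rats at postnatal day 1 to 2. One library came from OPC kept in medium with the growth factors PDGF-AA, bFGF, NT3 and CNTF. A second came from immature oligodendrocytes (iOL) after 1 day in triiodothyronine (T3, 60 nM), with PDGF-AA, bFGF and NT3 taken out. An IgG library of iOL was also made; its own profile was not analysed here, and the file header points to it as the control of the OPC peaks. The labels name no genetic change in these primary cultures, and they do not give the number of pups behind each library. On build rn6, 9117 peaks were listed for OPC (each 205 bp wide) and 6704 for iOL (each 209 bp). Each stage has 1 library and no read total, so no replicate error can be given and no p-value is reported. The intervals cover counting error alone, and each comparison sets peak lists, not stages, side by side. Peak positions do not measure expression, so the labelled cell type could not be checked against its markers.

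Seh1 is a subunit of the Y complex, a building block of the ring-shaped scaffold of the nuclear pore, and also belongs to a complex that signals amino acid levels to mTORC1. Simple repeats, or microsatellites, are short units of DNA copied head to tail, and low-complexity stretches are rich in 1 or a few bases without a strict unit. The alternation of adenine and cytosine, written CA or TG depending on the strand, is a frequent dinucleotide repeat of rodent genomes. Alternating purine and pyrimidine bases of this kind can take the left-handed Z form in supercoiled DNA.

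The 150 repeat names of the set were reduced to families, since (CA)n and (TG)n, for example, name the same double-stranded tract. A family is called by the alphabetically first way to write its unit over all start points and both strands. The units with 4 or more peaks, apart from runs of a single base, are shown because the description that follows turns on them, together with a heptamer of 2 peaks that both overlap iOL peaks. Each is written out to 24 letters from its name in the authors' deposited table, 5′ to 3′, with CAC or GTG in capitals; the real length of each tract and its interruptions are not in that table.
AC, 158 peaks: aCACACACACACACACACACACAC
ACC, 39 peaks: acCACCACCACCACCACCACCACc
AG, 14 peaks: agagagagagagagagagagagag
ACGC, 12 peaks: acgCACgCACgCACgCACgCACgc
AGG, 5 peaks: aggaggaggaggaggaggaggagg
AACC, 4 peaks: aaccaaccaaccaaccaaccaacc
ACACGC, 4 peaks: aCACgCACACgCACACgCACACgc
ACACCTC, 2 peaks: aCACctCACACctCACACctCACa

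The AC dinucleotide was the most frequent unit. It accounted for 158 of the 364 peaks (43.4%, exact binomial 95% interval 38.2 to 48.7%), written in 12 ways in the table. The ACC trinucleotide came next with 39 peaks (10.7%, 7.73 to 14.4%), written in 10 ways. The AG dinucleotide followed with 14 peaks (3.85%) and the tetranucleotide ACGC with 12 (3.30%). Runs of a single A, or T on the other strand, held 5 peaks. The simple repeats fell into 85 families in all, of which 55 held 1 peak each. Low-complexity peaks lay in G-rich (10), A-rich (5) and GA-rich (4) stretches. The share of the rat genome in each family was not measured, so these counts show neither preference for a unit nor avoidance of it.

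**Figure D1:**
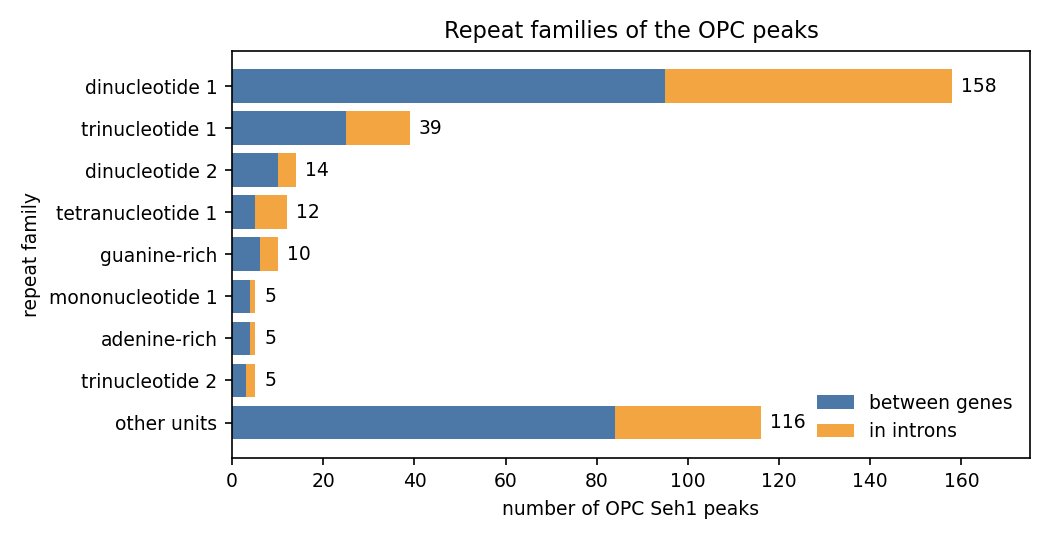
Number of OPC Seh1 peaks (horizontal axis) in each repeat family, split into peaks between genes and in introns. Dinucleotide 1 is AC with 158 peaks, trinucleotide 1 is ACC with 39, dinucleotide 2 is AG with 14, tetranucleotide 1 is ACGC with 12, mononucleotide 1 is A with 5 and trinucleotide 2 is AGG with 5; all remaining names are pooled as other units.

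What the 2 largest families share is the triplet CAC, or GTG on the other strand. It occurs in the repeated unit of 244 of the 345 simple-repeat peaks. The triplet was picked because these families hold it, and its share of the genome was not measured. The count therefore shows no preference for the triplet. Besides the AC and ACC families, which hold it by definition, 47 peaks in other units held it, among them the ACGC family and the hexamer and heptamer units shown above. The 101 peaks without it included the AG, AGG and single-A families. The dinucleotide CG stood in the unit of 33 peaks. Units made of both weak and strong pairs were the rule, 328 peaks, against 9 with G and C alone and 8 with A and T alone. By unit length, 174 peaks had a unit of 2 bases, 54 of 3, 33 of 4, 14 of 5 and 36 of 6 bases, and 26 peaks had longer units, up to 10 bases. On the plus strand of the build the C-bearing strand was read in 84 of the AC peaks and the G-bearing strand in 74, so C stood on the plus strand in 53.2% (45.1 to 61.1%). In the ACC family these counts were 17 and 22.

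Peak strength was read from the score column of the authors' deposited table. The header does not define this value, and scores lie on a ladder of about 0.638 per step. Scores of the set ran from 5.75 to 20.4 with a median of 7.66 (95% interval from order statistics 7.02 to 7.66), and the median over all annotated OPC peaks was 7.66 as well. A score of at least 10 was reached by 24 of the 364 peaks, 6.59% (4.27 to 9.65%), and by 5.52% of all annotated OPC peaks, a share within that interval. Low-complexity peaks stayed between 6.38 and 8.3, and 0 of 19 reached a score of 10. The exact binomial upper limit of that share is 17.6%, and 3 counts of 19 would be 15.8%. The 5.52% of all annotated OPC peaks lies below that limit, so the count of 0 does not set these peaks apart.

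Within the set, peaks in ACC repeats scored higher than those in AC repeats, a pattern that was picked out after the values had been seen and was not tested. The 39 ACC peaks ran from 6.38 to 20.4 with a median of 8.3 (7.66 to 8.94), that is 13 steps of the ladder. The 158 AC peaks ran from 5.75 to 12.1 with a median of 7.02 (7.02 to 7.66), or 11 steps. The ranges overlap widely and the intervals of the medians touch at 7.66. Scores of at least 10 were found in 8 of 39 ACC peaks (20.5%, 9.30 to 36.5%) and in 5 of 158 AC peaks (3.16%, 1.04 to 7.23%). Between genes the medians were 8.3 over 25 ACC peaks and 7.02 over 95 AC peaks. In introns they were 7.98 over 14 and 7.66 over 63, so that the difference shrank from 1.28 to 0.32 score units. The 4 AACC peaks, near relatives in sequence, had scores from 7.02 to 10.2, while the AG family stood at a median of 7.02 and reached 8.94 at most.

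**Figure D2:**
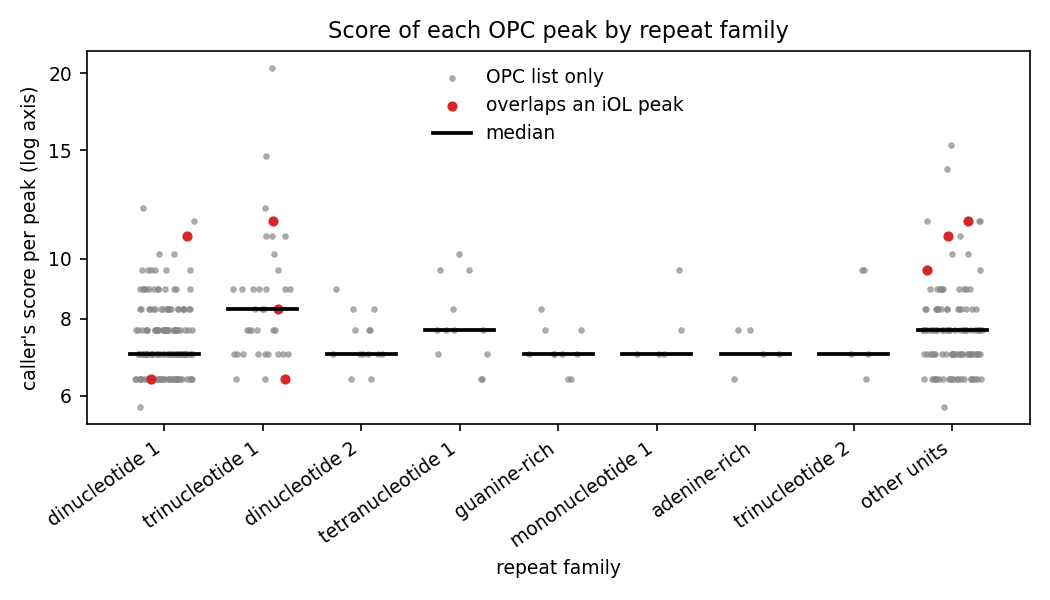
Caller's score (vertical log axis) of every OPC peak in a simple or low-complexity repeat, by repeat family in order of size; black lines mark family medians and red points the 8 peaks that overlap an iOL peak. The ACC family (trinucleotide 1) has a median of 8.3 and the highest point at 20.4, against a median of 7.02 in the AC family (dinucleotide 1).

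The strongest peak of the set lay in a (GGTGGT)n tract of the ACC family on chromosome 6, 11378073 to 11378277. Its score was 20.4 and its focus ratio, the fraction that the caller reports per peak, was 0.892. It stood in the only intron of Kcnk12, a gene of the two-pore potassium channel family, while the nearest transcription start site (TSS), 80.0 kb away, was that of the epithelial adhesion gene Epcam. A (TCAC)n tract between genes followed with a score of 15.3 (chromosome 3, 60268389 to 60268593), nearest to Wipf1, which encodes a partner of the actin regulator WASP. Next came an ACC tract on chromosome 19 (26485669 to 26485873, score 14.7), 289 kb from the lysosomal mannosidase gene Man2b1. An intron of the doublecortin-domain gene Dcdc2 held a (GTT)n tract on chromosome 17 (42009956 to 42010160, score 14.0). These 4 peaks were called in OPC and had no overlapping iOL peak. Only 1.73% of all annotated OPC peaks had one, so this does not set the 4 peaks apart.

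Scores of 12.1 were given to a (TGGTGG)n tract in intron 18 of Nrap, a muscle anchoring protein gene (chromosome 1, 277149180 to 277149384), and to a (TG)n tract in the first intron of Stox2 (chromosome 16, 48175621 to 48175825), the highest of the AC family. At 11.5 stood 6 peaks. They were a heptamer tract 170 kb from Zadh2, a (CAGCCC)n tract 8.82 kb upstream of the synaptic calsyntenin gene Clstn3, a (GGT)n tract 7.91 kb from the reductase gene Cyb5r4, a (TG)n tract 78.3 kb from Trim29, a decamer tract 744 kb from its nearest gene Ppp1r14c and an octamer tract in intron 6 of the autophagy gene Atg4a on chromosome X. The highest peak of the ACGC family scored 10.2 and lay 375 kb from Cand1, a regulator of cullin ubiquitin ligases. In the AGG family 2 peaks tied at 9.58, one in an intron of Lrrc49 and one in an intron of Slc9a9. The highest of the single-A runs lay 4.60 kb from the olfactory receptor gene Olr1197 (9.58), and that of the AG family 630 kb from Cbr4 (8.94). G-rich and A-rich stretches reached 8.3, at 25.5 kb from Akap1, a mitochondrial anchoring protein gene, and 7.66, where 2 A-rich peaks tied, 96.6 kb from the endothelin gene Edn3 and 82.4 kb from Slc5a3.

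Of the 364 peaks, 8 shared 1 bp or more with a peak of the iOL list. That is 2.20% (exact binomial 95% interval 0.954 to 4.28%), against 1.73% of all annotated OPC peaks, which lies inside the interval. Requiring 50% of the OPC peak to be covered left 6 peaks (1.65%; 1.42% of all annotated peaks), and allowing a gap of up to 1000 bp gave 12 (3.30%; 2.88%). The share in repeats therefore sat near the background under each rule.

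**Figure D3:**
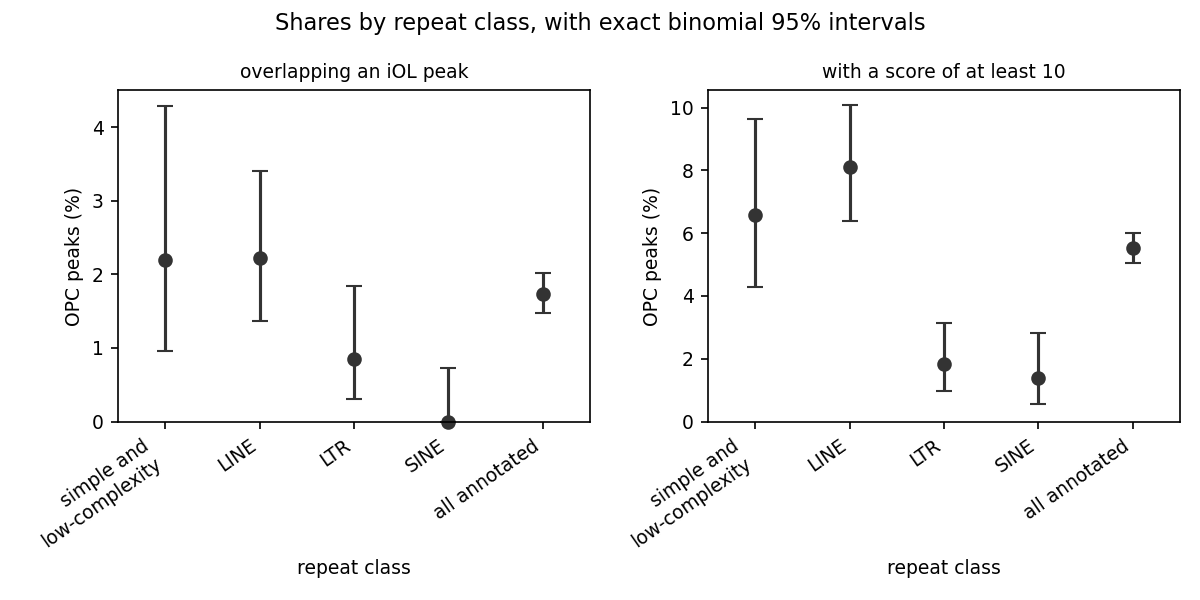
Share of OPC peaks that overlap an iOL peak (left) and share with a score of at least 10 (right), for simple and low-complexity repeats, 3 other repeat classes and all annotated peaks; points are shares in percent and bars exact binomial 95% intervals. The set stands at 2.20% and 6.59%, near the 1.73% and 5.52% of all annotated peaks.

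The 8 shared peaks came from 4 families. The widest overlap, 205 bp, was at an (AC)n tract 28.1 kb from Kin, a DNA-binding zinc finger gene (chromosome 17, 72180982 to 72181186), whose OPC score of 6.38 is among the lowest of the set. Next, with 186 bp, was an (AGGTGTG)n tract in intron 8 of the anthrax toxin receptor gene Antxr1 (chromosome 4, 119072668 to 119072872, score 10.9). A (CACCTCA)n tract 170 kb from Zadh2 (chromosome 18, 80769918 to 80770122, score 11.5) shared 168 bp. Written on a common strand these 2 tracts have the same unit, ACACCTC, and they are the 2 members of that family. Both peaks of the ACACCTC family were therefore found in the iOL list too (exact binomial interval 15.8 to 100%). This unit was picked because both of its peaks overlap iOL peaks, and no test was made. Of all 12 peaks with a unit of 7 bases, the same 2 overlapped an iOL peak (16.7%, 2.09 to 48.4%). That interval starts above the 1.73% of all annotated OPC peaks. It rests on the 2 peaks for which the unit was picked, so nothing is read from it.

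The ACC family gave 3 shared peaks out of 39 (7.69%, 1.62 to 20.9%). They lay 18.4 kb from the integrin gene Itga1 (chromosome 2, 47299700 to 47299904, score 6.38, 174 bp of overlap), 7.91 kb from Cyb5r4 (chromosome 8, 94685281 to 94685485, score 11.5, 133 bp) and 34.7 kb from Ldhal6b (chromosome 1, 46274432 to 46274636, score 8.3, 31 bp). The AC family gave 2 of 158 (1.27%, 0.154 to 4.50%), the tract near Kin and one 17.5 kb from Klf10, a TGF-beta-inducible zinc finger gene (chromosome 7, 77179486 to 77179690, score 10.9, 32 bp). The ACC and AC intervals both hold the 1.73% of all annotated OPC peaks, so neither family is set apart by its count. The eighth shared peak was a (C)n run in intron 53 of Lrp1b, a long receptor gene of the LDL receptor family (chromosome 3, 25482554 to 25482758, score 9.58, 138 bp). No shared peak was found among the 33 units with CG (exact binomial upper limit 10.6%, with 3 counts at 9.09%) or among the 19 low-complexity peaks (upper limit 17.6%). Both upper limits lie above the 1.73% of all annotated OPC peaks, so these counts of 0 set neither group apart. The shared peaks had scores from 6.38 to 11.5 with a median of 10.2, and the other 356 had a median of 7.66, with ranges that overlap. A further 4 peaks lay 134 to 978 bp from an iOL peak without touching it, with Zfp36l3, Hpgds, Smlr1 and Cbr4 as nearest genes, 74.5 to 630 kb away.

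The focus ratio had a median of 0.786 (0.765 to 0.800) over the set and 0.778 over all annotated peaks. It ran from 0.500, at the Klf10 tract among others, to 0.941. The ACGC family had a median of 0.835 (0.800 to 0.889) over 12 peaks and the AC family 0.776 (0.750 to 0.789) over 158, and these 2 intervals do not overlap. The difference was seen after the values were known and was not tested.

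Most of the set lay between genes: 236 peaks, against 128 in introns (35.2%, 30.3 to 40.3%). Among the other OPC peaks in introns or between genes the intron share was 34.1%, within that interval. The first intron of the annotated transcript held 42 of the 128 (32.8%, 24.8 to 41.7%), as against 31.1% of all intron peaks of OPC. The host transcript could be tied to a gene for 125 of the 128. The host was the gene with the nearest TSS for 87 of them and another gene for 38, so the nearest gene is not always the one that contains the repeat.

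Peaks of the set had a median distance of 51.9 kb to a TSS (41.5 to 64.8 kb), and 45.0 kb (42.9 to 47.3 kb) over the other intron and intergenic peaks. Peaks within 10 kb of a TSS numbered 60 (16.5%, 12.8 to 20.7%; 18.0% of the other intron and intergenic peaks) and those at 100 kb or more 124 (34.1%, 29.2 to 39.2%; 30.3%). Downstream of their TSS lay 209 (57.4%, 52.2 to 62.6%), beside 55.3% of the others. By family, 30 of 158 AC peaks (19.0%, 13.2 to 26.0%) but 2 of 39 ACC peaks (5.13%, 0.627 to 17.3%) stood within 10 kb; the intervals overlap. Another OPC peak lay within 10 kb of 39 peaks of the set (10.7%) and of 11.0% of the others.

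Set beside the interspersed repeats, the set lay nearer to TSS than LINE peaks and farther than SINE peaks. The medians were 147 kb (133 to 164 kb) for 902 peaks in LINE repeats, remnants of long retrotransposons, 58.7 kb (51.1 to 73.9 kb) for 707 in LTR repeats and 30.2 kb (25.1 to 35.3 kb) for 509 in the short SINE repeats. The interval of the set overlaps that of LTR peaks alone among these 3. Its intron share of 35.2% was nearer to that of SINE peaks (38.9%, 34.6 to 43.3%) than to those of LINE (18.5%) and LTR peaks (20.9%). In scores of at least 10 its 6.59% stood beside 8.09% in LINE, 1.84% in LTR (0.983 to 3.12%) and 1.38% in SINE repeats (0.555 to 2.81%), and the last 2 intervals lie below that of the set. Overlap with iOL was 2.22% for LINE (1.36 to 3.40%), 0.849% for LTR (0.312 to 1.84%) and 0 of 509 for SINE peaks (0 to 0.722%). Of these intervals only that of SINE peaks lies below that of the set (0.954 to 4.28%). None of these differences was tested, since peaks of 1 library are not replicates.

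**Figure D4:**
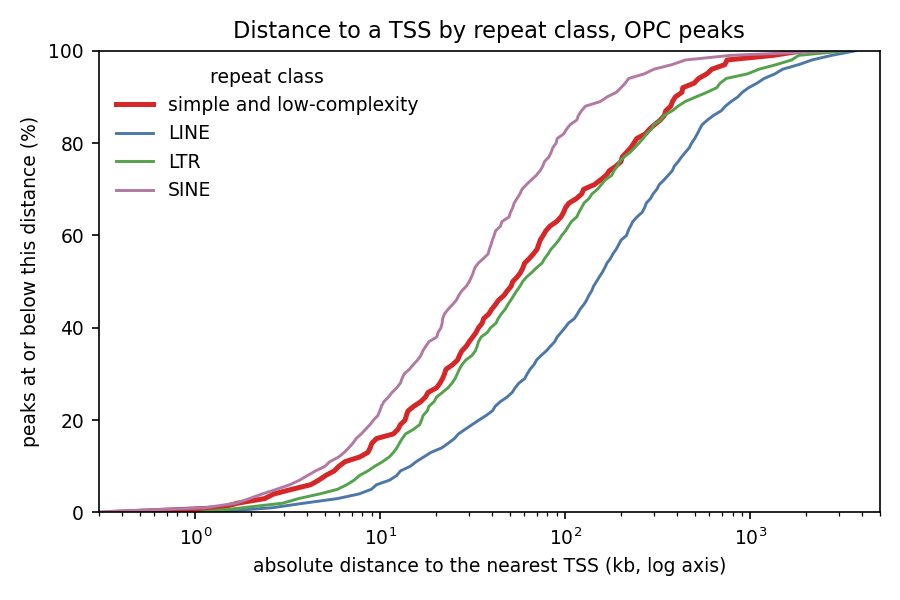
Cumulative share of OPC peaks (vertical axis, percent) by absolute distance to the nearest TSS (horizontal log axis, kb) for simple and low-complexity repeats and 3 classes of interspersed repeats. The curve of the set, with a median of 51.9 kb, runs close to that of LTR peaks (58.7 kb), between SINE peaks (30.2 kb) and LINE peaks (147 kb).

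The peaks closest to a TSS were in or beside genes of varied function. A G-rich stretch 360 bp inside Icmt, which methylates prenylated proteins such as Ras, had a score of 7.66 (chromosome 5, 169475528 to 169475732). A (GT)n tract lay 679 bp inside Dnm1, the neuronal dynamin of synaptic vesicle recycling (chromosome 3, 11381262 to 11381466, score 9.58). A (TCTCTG)n tract stood 1087 bp upstream of the forkhead factor gene Foxa2 (chromosome 3, 142382101 to 142382305, score 8.3). Further upstream tracts were (CTC)n at 1331 bp from the ubiquitin ligase gene Marchf10, (CA)n at 1377 bp from Hyou1, a chaperone of the endoplasmic reticulum, and (TG)n at 1570 bp from Cbr4, with scores of 7.02, 7.02 and 7.66. First introns held (CA)n 1533 bp into the tight junction gene Cldn19 (score 8.3) and (GTGTGT)n 1620 bp into Gpatch4 (7.02). Of these 8 peaks 5 were in the AC family, which makes up 43.4% of the set. None overlapped an iOL peak, beside 1.73% of all annotated OPC peaks. With 8 peaks, neither count is read as particular to those near a TSS.

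Among OPC peaks whose nearest gene belonged to the oligodendrocyte lists, those of the set numbered 2 of 42, 1 of 29 and 1 of 25 peaks, beside the 4.01% that the set makes up of all annotated peaks, and nothing particular to these genes is read from them. Of 28 genes for OPC identity or for holding back differentiation, 20 were the nearest gene of some OPC peak and 2 of a peak in these repeats. One was a (GT)n tract in intron 2 of Sox6, a transcription factor gene that restrains maturation (chromosome 1, 185820490 to 185820694, 147 kb from the TSS, score 7.66). The other was a (TCC)n tract 17.5 kb upstream of Sox4 (chromosome 17, 37597389 to 37597593, score 7.02). Among 29 lineage regulators, 13 had an OPC peak and 1 a peak of the set, a (GTGT)n tract 378 kb from Nkx2-2 (chromosome 3, 141033140 to 141033344, score 7.02). Among 30 myelin genes the counts were 14 and 1, the latter a (TCTGG)n tract 25.9 kb upstream of the tetraspanin gene Tspan2 (chromosome 2, 205134427 to 205134631, score 7.02). Nuclear pore genes, 30 in the list, had 14 and 1, with 1 of their 16 OPC peaks in the set. This was a (TGG)n tract in intron 13 of Nup210, a membrane-anchored pore protein gene (chromosome 4, 122697433 to 122697637, score 8.3). The lists of 17 astrocyte, 16 neuron and 10 microglia genes had OPC peaks at 11, 6 and 6 genes. These were 24, 9 and 7 OPC peaks, of which 0 lay in these repeats. Beside a share of 4.01%, counts this small do not set these lists apart from the oligodendrocyte lists. None of the 5 peaks named here overlapped an iOL peak, and their scores lie between 7.02 and 8.3. Since 1.73% of all annotated OPC peaks overlapped one, the lack of overlap is not read as particular to these genes.

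Repeats of the set were spread over genes. The 364 peaks had 351 nearest genes, of which 12 had more than 1. The same count was not made for other OPC peaks, so it is not read as particular to the set. Vrk1, a kinase gene of the vaccinia-related family, had 3, in (GT)n, (CCAAA)n and G-rich stretches 200, 235 and 1043 kb away, each with a score of 7.02. Cbr4, Cd180 and Dcdc5 were among those with 2. Their peaks lay in unlike units, (TC)n and (TG)n at Cbr4, (ACC)n and (AC)n at Cd180, and (ATC)n and (TGTG)n at Dcdc5. Neighbouring peaks of the set within 50 kb of each other formed 5 pairs. The closest, 1839 bp apart, lay 343 and 341 kb from Got2 in (TGTG)n and (AC)n tracts (chromosome 19, 9244921 to 9245125 and 9246965 to 9247169), with scores of 6.38 and 7.02. At Klc1, a kinesin light chain gene, (AC)n and (GT)n tracts 27.9 kb apart both scored 8.94. A non-coding gene was the nearest gene for 6 peaks, 5 of them in AC tracts or their complement, including one 13.1 kb upstream of Mir23a (score 8.3) and one in an intron of Ttc7a, 22.4 kb from Mir3558 (8.94).

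By chromosome, the share of annotated OPC peaks that lay in these repeats ran from 2.47% on chromosome 10 (16 of 647, 1.42 to 3.98%) to 6.54% on chromosome 13 (20 of 306, 4.04 to 9.91%), leaving aside chromosome Y with 3 annotated peaks. Chromosome 4 followed with 5.96% (32 of 537, 4.11 to 8.31%). The intervals of chromosomes 13 and 4 both start just above the upper end of that of chromosome 10. No test was made, and the repeat content of each chromosome was not measured.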

How the data were processed

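The submitters' processing notes name Bowtie2, HOMER and the builds rn6 and hg18, and give no versions or roles. Per the file headers, HOMER's annotatePeaks.pl annotated, on rn6, a peak set whose name joins Seh1 of OPC with IgG of iOL. The table is deposited under the iOL library, but 9084 of its rows match an OPC interval exactly and 0 match an iOL interval, so it was read as the OPC annotation. The other 33 OPC peaks, on scaffolds, have none. The authors' deposited table gives a score and a focus ratio (a fraction) per peak. For peak thresholds and for reads that align equally well at several places, the treatment is not given in the sources used here.

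Repeat names were reduced by rotation and reverse complement. Intervals are Clopper-Pearson for shares and order-statistic for medians (6 or more peaks), computed with Python 3.11.15 and SciPy 1.17.1. Unit reduction, overlap search and the median interval were tested on simulated data, the last without the ties that scores have. The interval for shares was not tested in this way. Distances are those of the table. Gene names came from the table. Symbols that had turned into dates (2 in the set) were restored by gene ID from the table of assembly GRCr8, where 361 of 364 IDs matched. Host genes were matched by transcript. Peaks named are the 10 highest scores, all that overlap iOL, the highest of frequent units, the 8 closest to a TSS, the 4 genes with most peaks (ties in alphabetical order) and genes of fixed lists. Of the 6 peaks tied at a score of 11.5 the rule takes 4, and the other 2 were added, as were ties for the highest of a unit. Also outside the rule, and picked after their values were seen, are the peaks near but not touching iOL peaks and those at Got2, Klc1, Mir23a and Mir3558. The set and the lists were chosen with earlier results of these data known. Alternatives covered the score threshold, repeat class, scaffolds, 1 peak per gene, overlap rule and unit naming.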

Additional observations from a re-analysis of the deposited data

How the results depend on the processing

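Keeping scores at or above the median of all annotated peaks raised the median score to 8.3, by construction, and left 5 genes with more than 1 peak of the set. Repeat names as written put 11.0% in the most frequent name, because a unit then splits over its spellings. The median distance to a TSS of intergenic peaks alone was 70.5 kb. The remaining planned settings stayed within the intervals of the reported values and, for the gene count, within 1.5 times. Among them, leaving out scaffolds could change nothing, because no peak of the set lay on a scaffold. For 1 peak per gene, the count of genes with more than 1 has no value. The ACC minus AC difference in median score, tried under settings chosen after seeing the data, was 1.28 except in introns (0.32). No paired analysis was possible because each group has 1 library. Depth is unknown. The series holds no IgG library of OPC, so the OPC peaks have no control from their own stage. The tract lengths of the repeats need an rn6 sequence that was not used here.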
